A study of Mus musculus with 2 samples.

Results

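The miR-148 and miR-152 family consists of 3 microRNA (miRNA) genes in the mouse, Mir148a, Mir148b and Mir152. All 3 were found by their Ensembl identifiers among the 1973 gene rows of the count tables. The samples were the single hearts of 2 pups of mouse strain B6NCrl at postnatal age 0 days, from the litter of pregnant female 1, with 1 small RNA library per heart. Pup 2 gave replicate 1 and pup 3 gave replicate 2. The sex of the pups was not recorded, and the labels name no treatment or genetic change. All samples form 1 group, so conditions cannot be compared. The design answers how much of each family member the newborn heart contained, in which order the members stood, and how far 2 hearts of 1 litter differed.

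A miRNA is cut from a hairpin precursor as a short strand that guides repression of messenger RNAs. Its targets are chosen mainly by the seed, the bases from position 2 to position 8. The members of the miR-148 and miR-152 family are known as repressors of the DNA methyltransferase Dnmt1, and miR-148a also as a repressor of the cholesterol exporter Abca1. Mir148a is widely known as an abundant miRNA of liver and pancreas, and Mir152 and Mir148b are carried by introns of protein-coding genes.

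The strands from the 3′ arm of the precursors are shown because they carry the seed that defines the family and the few bases that tell the members' reads apart. They are from RefSeq on GRCm38.p6, where all 3 members matched by symbol, with the seed in capitals.
miR-148a-3p: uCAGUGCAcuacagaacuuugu
miR-148b-3p: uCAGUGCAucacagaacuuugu
miR-152-3p: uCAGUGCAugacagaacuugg

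The seed CAGUGCA was identical in the 3 strands, and among 1738 mature mouse strands of the RefSeq table no other had it. Counted from 1 at the 5′ end, miR-148a-3p and miR-148b-3p were the same at 20 of 22 positions and differed by C9U and U10C. Over 21 shared positions miR-148a-3p and miR-152-3p differed by C9U, U10G and U20G. miR-148b-3p and miR-152-3p differed by C10G and U20G. All differences thus lay after the seed, at positions 9, 10 and 20.

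The strands of the 5′ arm are shown for a second seed that only part of the family shares, again in capitals.
miR-148a-5p: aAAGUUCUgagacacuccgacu
miR-148b-5p: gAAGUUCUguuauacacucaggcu
miR-152-5p: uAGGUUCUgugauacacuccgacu

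miR-148a-5p and miR-148b-5p had the seed AAGUUCU in common, and no further mature strand of the RefSeq table had it. miR-152-5p had the seed AGGUUCU, which occurred in no other mature strand of that table. The counts are per gene, so they do not say which of the arms a read came from.

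The precursors are shown whole because each read was counted on the gene and not on the arm. The mature strands are in capitals, the 5′ arm first. Mir148a lies at chr6:51269812-51269910 on the minus strand, Mir148b at chr15:103285125-103285221 on the plus strand and Mir152 at chr11:96850393-96850465 on the plus strand.
Mir148a: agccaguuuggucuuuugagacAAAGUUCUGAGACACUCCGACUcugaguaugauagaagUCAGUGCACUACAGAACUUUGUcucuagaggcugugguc
Mir148b: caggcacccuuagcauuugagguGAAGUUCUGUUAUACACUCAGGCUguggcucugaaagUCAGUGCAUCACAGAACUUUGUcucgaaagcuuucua
Mir152: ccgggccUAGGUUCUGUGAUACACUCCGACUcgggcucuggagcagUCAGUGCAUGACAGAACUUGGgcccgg

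The precursors were 99 nt (Mir148a), 97 nt (Mir148b) and 73 nt (Mir152) long, with a GC content of 45.5%, 45.4% and 61.6%. Compared with the 1004 other hairpins of the RefSeq table on either strand, the longest exact stretch that Mir148a shared was 15 nt, with Mir148b. For Mir152 it was 13 nt, with Gm51275 and Mir3473f. None of the 6 mature strands of the family had an exact copy in another gene among 141767 GENCODE M21 transcripts on either strand. The nearest ungapped match of a 3′ strand in another hairpin had 2 mismatches in each case and lay in another family member. The mismatches that the authors' alignment allowed are not given in the sources used here, so reads with errors may have moved between members or out of the counts.

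Mir148b and Mir152 share a kind of host gene. Mir148b lies in intron 1 of Copz1 (chr15:103272714-103299868) in all 4 annotated transcripts that span it, and Mir152 in intron 1 of Copz2 (chr11:96849870-96861203) in all 3 that span it. Copz1 and Copz2 encode the zeta subunits of coatomer, the coat of vesicles that run between Golgi and endoplasmic reticulum. Both miRNA genes lie on the strand of their host and overlap none of its annotated exons. Mir148a overlaps no annotated gene, and the nearest protein-coding gene, Nfe2l3, is 162760 bp away.

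The sense strands of miRNA genes had 2323450 counts in replicate 1 and 3487183 in replicate 2. Levels are given as CPM, the count scaled to 1000000 such counts, and 3 counts, the limit that a count of 0 allows, correspond to 1.29 CPM and 0.860 CPM. Reads with more than 1 alignment, 36.6% and 37.1% of the total, are not resolved by gene. The labels record no molecular identifiers, so reads are not independent molecules, and intervals and floors cover counting error only. As a check of the labelled tissue, the cardiac muscle list of 5 miRNA genes held 8.95% ± 0.0834 (SD, n = 2) of the counts. Mir208a, Mir208b and Mir499, the miRNAs of myosin genes, carried this sum with means of 14939, 69793 and 4790 CPM. The list's remaining members, Mir1a-1 and Mir133a-1, had means of only 6.38 and 7.89 CPM; both are numbered copies, and their counts are uncertain. Markers of other cell types and tissues were summed in the same way. Endothelial Mir126a held 10.7% and the smooth muscle list of 2 genes 10.03%, both above the cardiac muscle list. Mir143 carried the smooth muscle sum with a mean of 98576 CPM, beside 1712 CPM for Mir145a. The fibroblast list held 1815 and 1888 CPM, the erythroid list 627 and 542, the white blood cell list 536 and 498, and liver Mir122 had 53.8 and 47.3 CPM. Mir214 carried the fibroblast sum with a mean of 1807 CPM, and the numbered copies Mir199a-1 and Mir199a-2 had 2.08 and 42.4 CPM. The neuronal list had 0 counts in both hearts for all 5 members with a row, several of which have near-identical copies. The epithelial list of 7 genes summed to 368 CPM in the first heart and 763 CPM in the second. By an exact binomial test between the libraries 5 of the 7 were higher in replicate 2, beside 17.8% of all genes tested, and Mir200a and Mir203 did not pass. Bulk tissue cannot tell fewer cells of a type from less RNA per cell.

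Mir148a was the main member of the family in the newborn heart. It had 3923 counts in replicate 1 and 5636 in replicate 2, which are 1688 and 1616 CPM. The exact Clopper-Pearson 95% intervals were 1636 to 1742 CPM and 1574 to 1659 CPM, so the intervals of the 2 hearts overlapped. The mean level was 1652 ± 51.1 CPM (SD, n = 2), or 0.165% of the sense counts, which put Mir148a at place 60 of the 1973 miRNA genes.

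Mir152, in the first intron of Copz2, had 491 counts in replicate 1 and 806 in replicate 2. Its level was 211 CPM (193 to 231) in replicate 1 and 231 CPM (215 to 248) in replicate 2, with a mean of 221 ± 14.0 CPM (SD, n = 2). Mir148b, in the first intron of Copz1, had 470 and 777 counts. Its level was 202 CPM (184 to 221) in replicate 1 and 223 CPM (207 to 239) in replicate 2, with a mean of 213 ± 14.5 CPM (SD, n = 2). The ranges of these genes over the pups overlapped, and every value of Mir148a was higher than every value of Mir148b and Mir152.

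**Figure D1:**
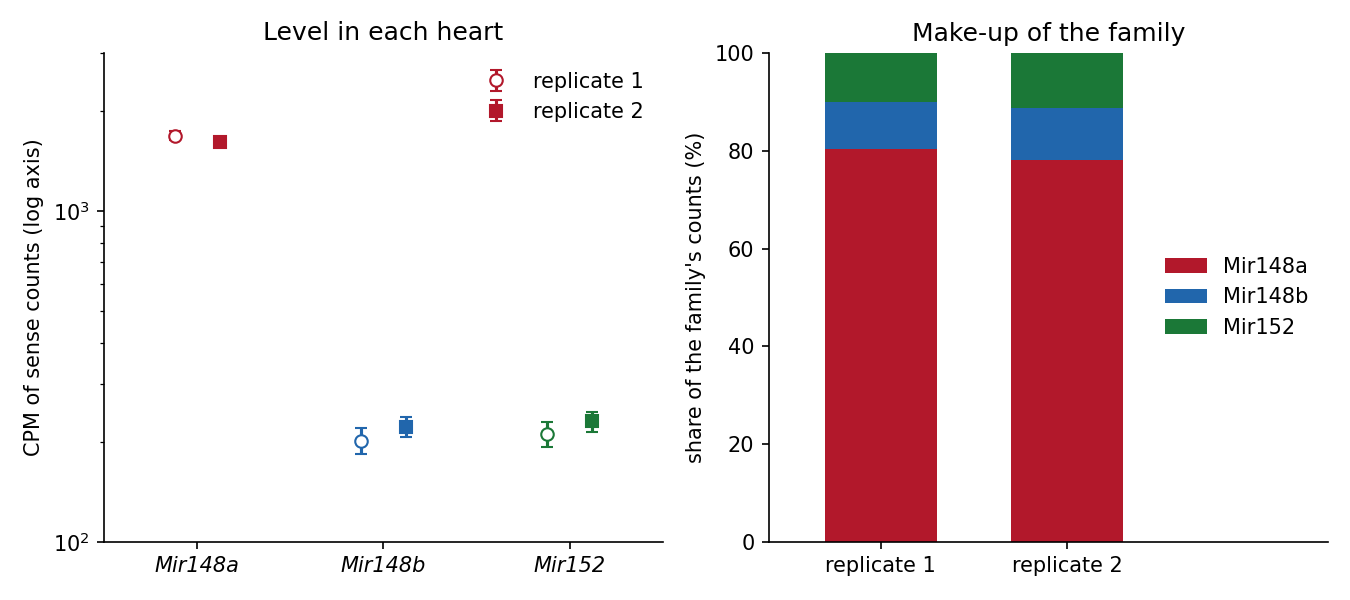
Left, CPM of sense counts on a log axis for each family member in replicate 1 (open circles) and replicate 2 (filled squares), with exact 95% counting intervals as bars. Right, the share of the family's counts held by each member in each heart; Mir148a holds 80.3% and 78.1%.

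In counts, Mir148a exceeded Mir148b 8.35-fold in replicate 1 and 7.25-fold in replicate 2 (mean log2 ratio 2.95 ± 0.143, SD over 2 pups). It exceeded Mir152 7.99-fold and 6.99-fold (mean log2 ratio 2.90 ± 0.136). Mir152 stood 1.04-fold above Mir148b in both hearts. The 95% counting intervals of that ratio, 0.919 to 1.19 and 0.939 to 1.15, include 1, so no order of Mir152 and Mir148b was detectable in counts at this depth. Per nt of annotated precursor, Mir148a exceeded Mir148b 8.18-fold and 7.11-fold and Mir152 5.89-fold and 5.16-fold. On that per-length scale Mir152 was 1.39-fold and 1.38-fold above Mir148b, with counting intervals of 1.22 to 1.58 and 1.25 to 1.52. That scale only multiplies the count ratio by a fixed ratio of precursor lengths. It therefore adds no evidence of an order. The inserts were under 30 nt, shorter than any of the precursors, so counts need not grow with precursor length. How many reads each strand yields per molecule was not measured. These ratios were not tested, because with 2 pups the smallest p of an exact sign flip (two-sided) is 0.5.

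Within the family, Mir148a took 80.3% of the counts in replicate 1 (exact Clopper-Pearson 95% interval 79.2% to 81.4%) and 78.1% in replicate 2 (77.1% to 79.0%). Mir152 took 10.1% and 11.2%, and Mir148b 9.62% and 10.8%. The share of Mir148a, the only member outside the Copz genes, was 2.25 percentage points higher in replicate 1, and its intervals in the 2 hearts did not overlap. No test of the make-up was run.

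The 3 members summed to 2102 CPM in the first heart and to 2070 CPM in the second, a mean of 0.209% ± 0.00226 (SD, n = 2) of the sense counts. Among 33 listed miRNA families the sum stood at place 15. The neighbours in that order were the miR-10 family above, with 2570 and 2752 CPM, and the miR-101 family below, with 1476 and 1629 CPM. The values of the pups did not overlap between these families. The highest of the listed families, let-7 with miR-98, held 10.2%. The list is not complete, and Mir126a, which held 10.7%, and Mir143, which held 9.86%, belong to none of its families. Place 15 therefore holds within the list only. Reads that align more than once are in none of these sums. The strands of the miR-148 and miR-152 family each had 1 annotated locus, whereas several listed families hold near-identical loci, and the effect of this on the order was not tested.

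**Figure D2:**
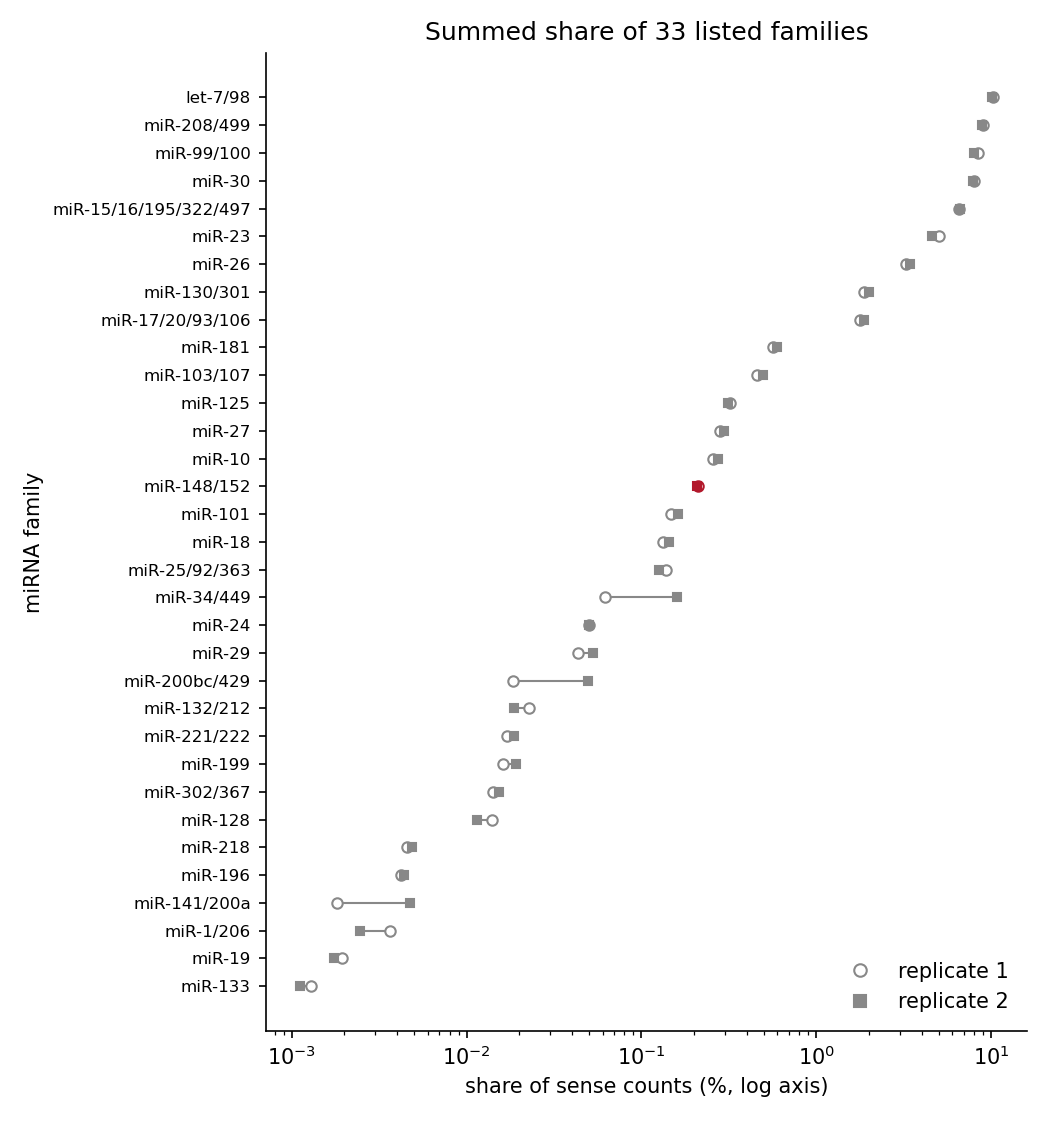
Summed share of sense counts in percent on a log axis for 33 listed miRNA families, in replicate 1 (open circles) and replicate 2 (filled squares), ordered by their mean. The miR-148 and miR-152 family, in red, lies at place 15 with nearly coinciding symbols at 0.210% and 0.207%.

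Among all miRNA genes, Mir148a lay between Mir145a at 1712 ± 38.2 CPM and Mir181d at 1623 ± 151 CPM (SD, n = 2), and overlapped both over the 2 hearts. The next gene below, Mir361 at 1441 ± 24.5 CPM, did not overlap with it. Mir152 and Mir148b stood at places 123 and 125, with Mir224 between them at 220 ± 17.2 CPM. Mir350 above them (226 ± 11.1 CPM) and Mir134 below them (204 ± 38.6 CPM) overlapped the neighbouring member, so the places in this stretch are not resolved.

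**Figure D3:**
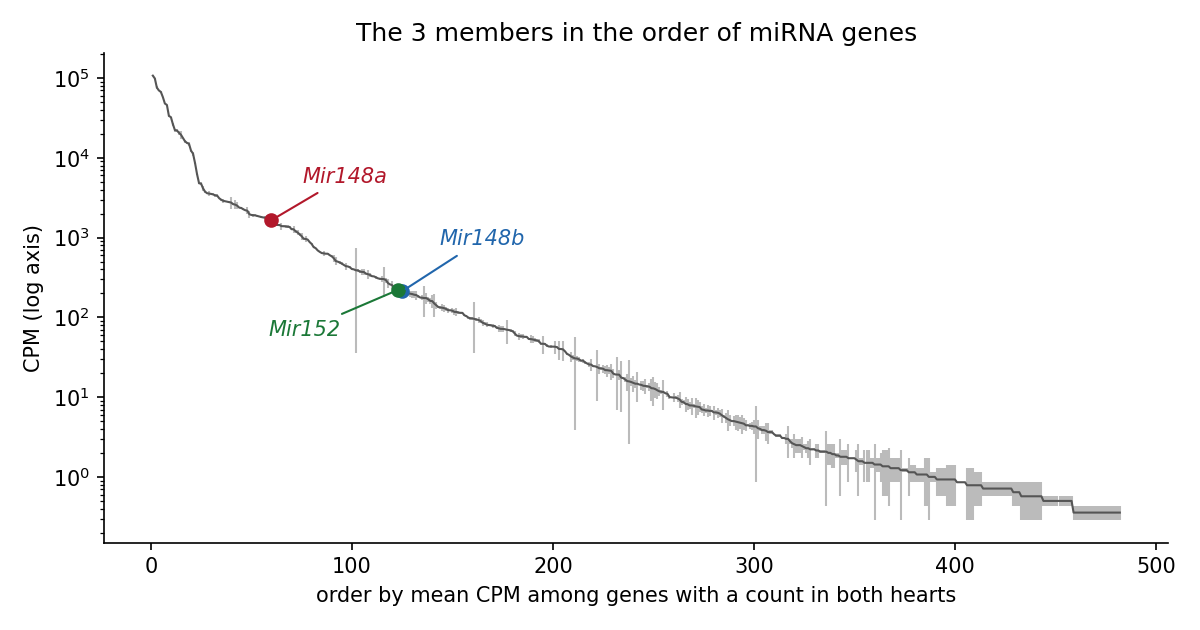
CPM on a log axis against the order by mean CPM, for the 482 miRNA genes with a count in both hearts; the line is the mean and each grey bar joins the 2 hearts. Mir148a is at place 60, and Mir152 and Mir148b lie nearly on top of each other at places 123 and 125.

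Likeness of pattern was measured as the distance between genes in log2(CPM + 1) over the 2 samples, among 481 other genes with a count in both. The genes most like Mir148a were Mir145a (distance 0.106), a miRNA of smooth muscle, Mir298 (0.154) and Mir130b (0.175). The genes most like Mir152 were Mir224 (0.0268), Mir350 (0.0526) and Mir148b (0.0819). Those most like Mir148b were Mir224 (0.0668), Mir152 (0.0819) and Mir350 (0.133). Mir148b and Mir152 were thus among the 3 nearest genes of each other. With 2 samples the distance mostly reflects the level.

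The hearts of the 2 pups differed little in the family. An exact binomial test (two-sided) was run on the counts of each of 348 genes with 10 or more counts in sum, with library sizes scaled by TMM (trimmed mean of M values) and Benjamini-Hochberg adjustment. It compares these 2 libraries, not conditions, and called 27.9% of the genes, 17.8% higher and 10.1% lower in replicate 2. Mir148a was lower in replicate 2, 0.946-fold (95% counting interval 0.908 to 0.986, log2 ratio -0.079, adjusted p = 0.0310, exact binomial test). This call was lost with total counts as library size (adjusted p = 0.111, exact binomial test), with DESeq2 size factors (0.0583) and with no filter on low counts (0.0547).

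Mir148b was 1.09-fold in replicate 2 relative to replicate 1 (0.970 to 1.22, adjusted p = 0.343, exact binomial test). Mir152 was 1.08-fold (0.965 to 1.21, adjusted p = 0.379, exact binomial test). Neither passed, and their intervals leave differences of up to 1.22-fold and 1.21-fold undetected at this depth. The test thus called 1 of 3 members, beside 27.9% of all genes tested and 42.5% of the 193 genes whose mean reached 50 CPM. The sum of the 3 members was 0.974-fold (0.939 to 1.01).

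The absolute log2 ratio between the hearts was 0.079 for Mir148a, 0.12 for Mir148b and 0.11 for Mir152, with a median of 0.11. The median over the 193 genes whose mean reached 50 CPM was also 0.11. Both medians are the value of Mir152, which belongs to both sets, so their match is that gene compared with itself. Among the 193 genes, 121 had a larger value than Mir148a, 96 than Mir152 and 91 than Mir148b. The coefficient of variation between the pups was 3.09% for Mir148a, 6.33% for Mir152 and 6.83% for Mir148b. The epithelial sum was higher in replicate 2, where CPM of Mir148b and Mir152 was slightly higher, without passing, and that of Mir148a lower. Of the 193 genes, 115 were higher in replicate 2. Any part of the epithelial sum in the values of the members was not tested. The pancreatic list was at or near 0 apart from Mir375, with 0 counts of Mir216a in both hearts, 0 and 1 of Mir216b and 0 and 3 of Mir217. Mir375, which epithelia of gut and lung also express, had 9 and 200 counts.

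**Figure D4:**
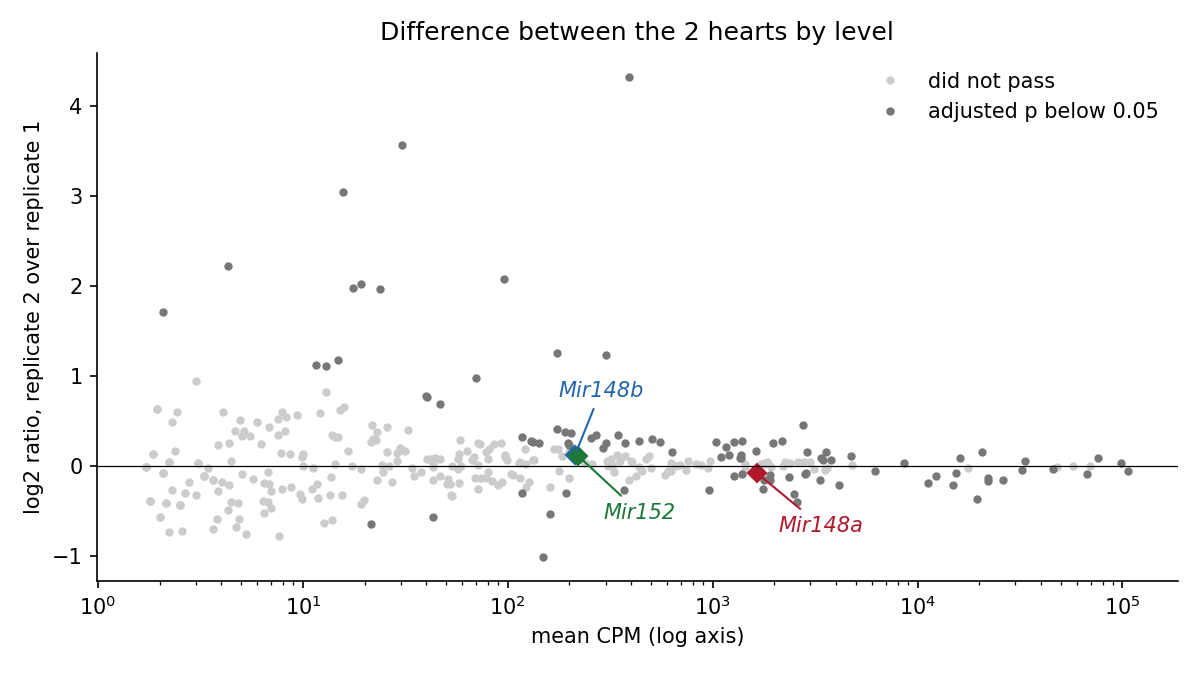
Log2 ratio of replicate 2 over replicate 1 against mean CPM on a log axis for the 348 miRNA genes tested; dark grey points passed the exact binomial test and light grey points did not, and the diamonds are the 3 members. The members lie at -0.079 (Mir148a), 0.12 (Mir148b) and 0.11 (Mir152), close to the line of no difference.

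Other miRNAs with targets among DNA methyltransferases or in cholesterol transport gave a frame for these levels. The list held 13 genes: the Mir29 genes, known to repress Dnmt3a and Dnmt3b, and Mir33, Mir27b, Mir144, Mir128-1, Mir128-2, Mir30c-1, Mir30c-2, Mir223 and Mir122, linked to lipid and lipoprotein metabolism. All 13 had a row and 12 were tested. Mir27b led at 2208 and 2317 CPM, above Mir148a in both hearts. Every other gene of the list was lower than Mir148a in each heart.

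Mir29a followed at 303 and 391 CPM, Mir223 at 334 and 323, Mir144 at 189 and 132, Mir29c at 129 and 137, and Mir128-1 had a mean of 117 ± 16.2 CPM (SD, n = 2). Mir152 and Mir148b lay between Mir223 and Mir144 in mean level. Mir33, the intronic miRNA of the sterol regulator Srebf2, had 27.5 and 32.1 CPM. Between the hearts 1 gene of the list was called higher in replicate 2 and 2 lower, 3 of the 12 tested, beside the 27.9% of all genes. Mir29a was higher (log2 ratio 0.35, adjusted p = 7.02e-07, exact binomial test) and Mir144, an erythroid miRNA, lower (-0.53, adjusted p = 2.80e-07, exact binomial test). The other gene of the erythroid list, Mir451a, did not pass (-0.11, adjusted p = 0.178, exact binomial test). Mir128-1 was lower at -0.30 (adjusted p = 0.0310, exact binomial test), a call lost with no filter on low counts (0.0547). The list's median log2 ratio was -0.14, and that of the 348 genes tested was 0.03. Mir29b-1, Mir29b-2, Mir128-1, Mir128-2, Mir30c-1 and Mir30c-2 are numbered copies with near-identical strands and their counts are uncertain.

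All 3 members lie within 1 Mb of a miRNA gene of a Hox cluster. The share of all miRNA genes that lie this near to one was not computed, so this is a description only. The Hox clusters hold the genes that pattern the body axis and carry miRNA genes of their own. Mir148a is 0.960 Mb from Mir196b on chromosome 6, with no other counted miRNA gene between them. Mir152 is 0.533 Mb from Mir10a and 0.585 Mb from Mir196a-1 on chromosome 11. Mir148b is 0.270 Mb from Mir615 and 0.312 Mb from Mir196a-2 on chromosome 15.

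The neighbours stood in another order than the members. Mir10a had 1148 and 1398 CPM, above Mir152, whereas Mir196b had 42.2 and 43.9 CPM, below Mir148a, and Mir615 had 6.89 and 6.60 CPM, below Mir148b. Mir196a-1 and Mir196a-2 had 0 counts in both hearts, and as near-identical copies their counts are uncertain. Mir10a was higher in replicate 2 (log2 ratio 0.27, adjusted p = 9.55e-14, exact binomial test), and Mir152, its neighbour on chromosome 11, did not pass. The difference between these ratios was not tested.

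The opposite strand of the members was nearly empty. Mir148a and Mir148b had 0 opposite-strand counts in both hearts, and Mir152 had 2 in replicate 1 and 0 in replicate 2. Pooled over all miRNA genes, 6.62% and 6.67% of counts lay on the opposite strand. A pooled share does not give the usual share of a single gene. The genes most like the members in level, Mir145a, Mir298, Mir130b, Mir224 and Mir350, also had 0 opposite-strand counts in both hearts. An empty opposite strand was thus not particular to the family. Opposite-strand counts are in none of the levels given for the family.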

How the data were processed

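Small RNA libraries from 2 newborn mouse hearts were analysed from the deposited counts, whole numbers of reads per gene, not normalized, for the sense strand, the opposite strand and their sum. Per the labels, total RNA and inserts under 30 nt were used and reads were placed on mm10; the deposited descriptions name GENCODE M4. The aligner, counter and their settings are not given in the sources used here. The 4 summary rows (unmapped, aligned to several places, no feature and ambiguous) entered neither library sizes nor tests; sense counts on genes were 46.0% and 46.9% of reads. Identifiers were matched to GENCODE M21 on GRCm38, the assembly of mm10 (1894 of 1973; the other 79 had 0 counts).

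CPM used total sense counts. Log2 ratios between hearts used TMM sizes (edgeR 4.0.16; factors 0.994 and 1.01) and a pseudocount of 1 CPM, and the exact binomial test (scipy 1.17.1) a summed count of 10 or more and a threshold of 0.05; ratios between members used CPM. The test was tested on simulated data with counting error alone, which does not cover variation between pups or libraries. Intervals are exact Clopper-Pearson at 95%. With 1 library per side no quasi-likelihood model could be fitted. DESeq2 1.42.0 gave alternative size factors. The members and lists were chosen with earlier results of these data known. Named genes were the members, the 3 genes nearest to each in log2(CPM + 1), list members, chromosome neighbours and neighbours in the order. Neighbours in the order of genes (as opposed to families) were named after their values were seen.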

Additional observations from a re-analysis of the deposited data

How the results depend on the processing

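Of 76 recomputed values of the levels, ratios and counts of genes, 62 were labelled unchanged, 11 moved and 3 lost a call. For levels, shares and ratios between members, unchanged meant within the replicate spread. For the ratio of a single gene between hearts it meant the same direction and call. The ratio of the sum between hearts, which has no call, had to stay within its counting interval. The number of genes that differ had to stay within 1.5-fold. With 2 hearts, leaving out either heart cannot move a value beyond the replicate spread. The pseudocount does not enter the binomial test, so no call could change with it. The filter on low counts does not enter the ratio of the sum between hearts. Mir148a and Mir148b had 0 opposite-strand counts, so counts of both strands could change their ratio only through the pseudocount. These alternatives are among the 62 and their outcome was fixed in advance. With counts of both strands the levels of Mir148a, Mir152 and the sum were 1543, 207 and 1948 CPM, as the total then includes the opposite strand. Scaled to 1000000 reads of any kind, Mir148a, Mir148b, Mir152 and the sum were 767, 98.7, 103 and 968. With DESeq2 size factors, multiplied by the mean total of the 2 libraries, the sum was 2044 CPM. That choice of scale lowered the level of every gene in both hearts, so the move is not specific to the family. Per nt of the precursor the share of Mir148a was 76.2%, the log2 ratio of Mir148a over Mir152 was 2.46 and that of Mir148b over Mir152 was -0.47. The moves with both strands, with reads of any kind and per nt follow from larger totals or from fixed precursor lengths.

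The log2 ratio of replicate 2 over replicate 1 for Mir148a was -0.063 with total sense counts, -0.072 with DESeq2 size factors and -0.079 with no filter, and no longer passed in these 3 (adjusted p from 0.0220 to 0.111 over its alternatives, exact binomial test). Leaving out either heart leaves the value of the other, 1616 to 1688 CPM for Mir148a, 211 to 231 CPM for Mir152 and 202 to 223 CPM for Mir148b. The number of genes that differ between the libraries ranged from 86 to 104. No paired analysis was possible because there is 1 group. The alternatives for Mir29a, Mir144, Mir128-1 and Mir10a were chosen after seeing the data. Depth limits Mir148b and Mir152, with 470 to 806 counts per heart.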
